A study of Mus musculus with 11 samples.

Results

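The 8 genes described here mark the exocrine and ductal pancreas: Ptf1a, Rbpjl, Nr5a2 and Bhlha15, transcription factors of acinar cells, Cpa1, a digestive enzyme gene, and Sox9, Krt19 and Spp1, genes of the ducts. They were taken by gene symbol, whatever their values, from chromatin data on sorted endocrine cells of the mouse pancreas. They had 26 of the 73897 distinct deposited regions, namely 10 of 31479 H3K27ac regions, 9 of 20086 H3K27me3 regions and 7 of 22332 promoter windows scored for binding of the transcription factor ISL1.

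The measurements came from CUT&Tag, in which an antibody directs a transposase to the chromatin it binds, so that DNA next to a histone mark or a factor is sequenced. H3K27ac marks active promoters and enhancers, and H3K27me3 is laid down by Polycomb complexes at silenced genes. Isl1CKO mice (Isl1loxP/loxP;Neurod1-cre) at postnatal day 9 gave 2 libraries per mark, and their Control littermates (Isl1loxP/+;Neurod1-cre) gave another 2 per mark. ISL1 binding was measured in Control cells only, at E14.5 (2 libraries, deposited as 1 pooled column) and at P9 (1 library).

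All groups carried the Neurod1-cre transgene, which deletes floxed DNA where the endocrine gene Neurod1 is active, and a tdTomato reporter (Ai14) that Cre switches on. The mice were males and females on a C57BL/6 background. Controls had 1 floxed Isl1 copy, so they are heterozygous after recombination and not wild type. Each P9 histone library was an independent pool of 3 to 4 pancreases, and the cells were sorted for tdTomato.

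The pancreas is built by acinar cells, which secrete digestive enzymes, by ducts, which carry them away, and by endocrine islets, and all of these descend from shared progenitors. In acinar cells the bHLH protein PTF1A joins an E protein and RBPJL, which takes the place of RBPJ, in the PTF1 complex. That complex binds an E-box next to a TC-box and drives its own genes and those of the enzymes. SOX9 maintains the progenitors and is later kept in ducts, so Sox9 and Ptf1a belong to the history of endocrine cells but not to their mature program.

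The promoters of 6 of the 8 genes were found in the RefSeq table of the GRCm38.p6 build, each as 250 bases before and 50 after a gene start. Ptf1a and Rbpjl are printed because wide H3K27me3 domains lay over their starts, Bhlha15 because it had an H3K27ac promoter region, and Cpa1 and Spp1 because neither mark was listed at their starts. Capitals mark E-boxes (CANNTG) and the TC-box letters TGGGAA, searched on both strands. All 5 are on the plus strand, at chr2:19445413-19445712 for Ptf1a, chr2:164402944-164403243 for Rbpjl, chr5:144190036-144190335 for Bhlha15, chr6:30638968-30639267 for Cpa1 and chr5:104434861-104435160 for Spp1.
Ptf1a: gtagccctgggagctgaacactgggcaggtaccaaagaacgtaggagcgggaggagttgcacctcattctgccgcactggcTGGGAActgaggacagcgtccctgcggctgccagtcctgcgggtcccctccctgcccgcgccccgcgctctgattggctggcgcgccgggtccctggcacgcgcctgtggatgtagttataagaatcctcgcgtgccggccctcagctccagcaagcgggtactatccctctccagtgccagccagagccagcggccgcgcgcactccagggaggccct
Rbpjl: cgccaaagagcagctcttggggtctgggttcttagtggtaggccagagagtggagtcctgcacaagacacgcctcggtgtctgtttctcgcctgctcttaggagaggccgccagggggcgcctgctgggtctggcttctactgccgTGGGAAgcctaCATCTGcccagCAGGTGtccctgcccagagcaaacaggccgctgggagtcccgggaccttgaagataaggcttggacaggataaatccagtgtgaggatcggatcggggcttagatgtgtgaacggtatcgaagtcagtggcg
Bhlha15: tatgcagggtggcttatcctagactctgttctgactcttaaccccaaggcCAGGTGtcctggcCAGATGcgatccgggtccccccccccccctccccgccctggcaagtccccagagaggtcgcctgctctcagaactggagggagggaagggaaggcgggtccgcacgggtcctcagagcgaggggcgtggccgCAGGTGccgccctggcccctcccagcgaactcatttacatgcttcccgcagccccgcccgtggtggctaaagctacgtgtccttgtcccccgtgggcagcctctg
Cpa1: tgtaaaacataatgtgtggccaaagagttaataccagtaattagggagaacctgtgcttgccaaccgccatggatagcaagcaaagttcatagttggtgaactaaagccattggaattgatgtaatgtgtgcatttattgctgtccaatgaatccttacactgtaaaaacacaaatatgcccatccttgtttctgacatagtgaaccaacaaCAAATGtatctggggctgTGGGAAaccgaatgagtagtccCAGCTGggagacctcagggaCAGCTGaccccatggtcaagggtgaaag
Spp1: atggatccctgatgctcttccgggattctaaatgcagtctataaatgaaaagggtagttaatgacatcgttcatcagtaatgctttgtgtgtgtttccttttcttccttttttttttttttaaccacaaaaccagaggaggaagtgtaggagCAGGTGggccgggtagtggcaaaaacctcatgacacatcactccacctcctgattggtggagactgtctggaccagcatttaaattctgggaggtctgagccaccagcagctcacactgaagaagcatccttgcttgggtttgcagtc

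The printed promoters differed in base composition. Ptf1a held 23 CpG dinucleotides at 67.3% GC, Bhlha15 held 17 at 66.7% and Rbpjl held 14 at 59.7%. Cpa1 held 2 at 43.7% and the printed Spp1 promoter 3 at 45.3%, while the median of all 32851 promoter windows was 7 CpG and 52.7% GC. A second Spp1 promoter held 3 CpG at 36.7% GC, and the Nr5a2 promoters held 2 at 42.0% and 7 at 49.0%.

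Letters of the PTF1 site were found at Rbpjl and Cpa1. Rbpjl had E-boxes CATCTG and CAGGTG whose first bases lay 11 and 22 bases from that of TGGGAA. Cpa1 had CAAATG and CAGCTG at 18 and 22 bases from its TGGGAA, and a further CAGCTG at 42 bases. Ptf1a had TGGGAA and no CANNTG in this window, and Bhlha15 had 3 E-boxes and no TGGGAA. Such letters are common: 72.3% of all promoter windows held CANNTG, 25.6% held TGGGAA and 19.0% held both. The homeodomain core TAAT, in 58.0% of windows, occurred 5 times at Cpa1 and 2 times at the printed Spp1 promoter. It was not in the printed windows of Ptf1a, Rbpjl and Bhlha15. The TATA box letters TATAAA, in 13.6% of windows, were in the printed Spp1 promoter, toward its upstream end and far from the gene start. They were also in the Nr5a2 promoter at chr1:136960399-136960698.

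Histone regions carry the coordinates of another build, GRCm39, and none was converted. Values are CPM in its usual sense, a region's count relative to the counts in all tested regions of the library, scaled between libraries with TMM factors. The H3K27ac libraries held 681047 and 1441926 counts in Isl1CKO and 1307049 and 1815511 in Control, and the H3K27me3 libraries 2276887 and 2260039 in Isl1CKO and 1202276 and 1750706 in Control. Control replicate 2 of H3K27ac stood apart from the other libraries, with correlations across regions of 0.473 to 0.517 with them. The others correlated at 0.696 to 0.738 among themselves. For H3K27me3 the Isl1CKO libraries correlated at 0.709 with each other, but at 0.802 and 0.795 with Control replicate 1. Their correlations with Control replicate 2 were 0.666 and 0.653, and the Control libraries correlated at 0.757. H3K27me3 libraries thus did not group by genotype. Of 31 endocrine genes, 25 had an H3K27ac region, and Ins2, Gcg, Sst and Hhex were among those without one. Only regions with at least 50 counts over the 4 libraries of a mark were listed, so a gene with no region may still have had signal below that level.

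The chromatin of these genes took several forms. Ptf1a and Rbpjl had H3K27me3 over their starts and no H3K27ac region. Bhlha15 had H3K27ac and no H3K27me3 region. Nr5a2, Sox9, Krt19 and Cpa1 had regions of both marks, and Spp1 had none of either mark. Fewer cells of a type with a mark and less of the mark per cell cannot be told apart in these pooled nuclei, nor can marks on the same and on different cells.

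**Figure D1:**
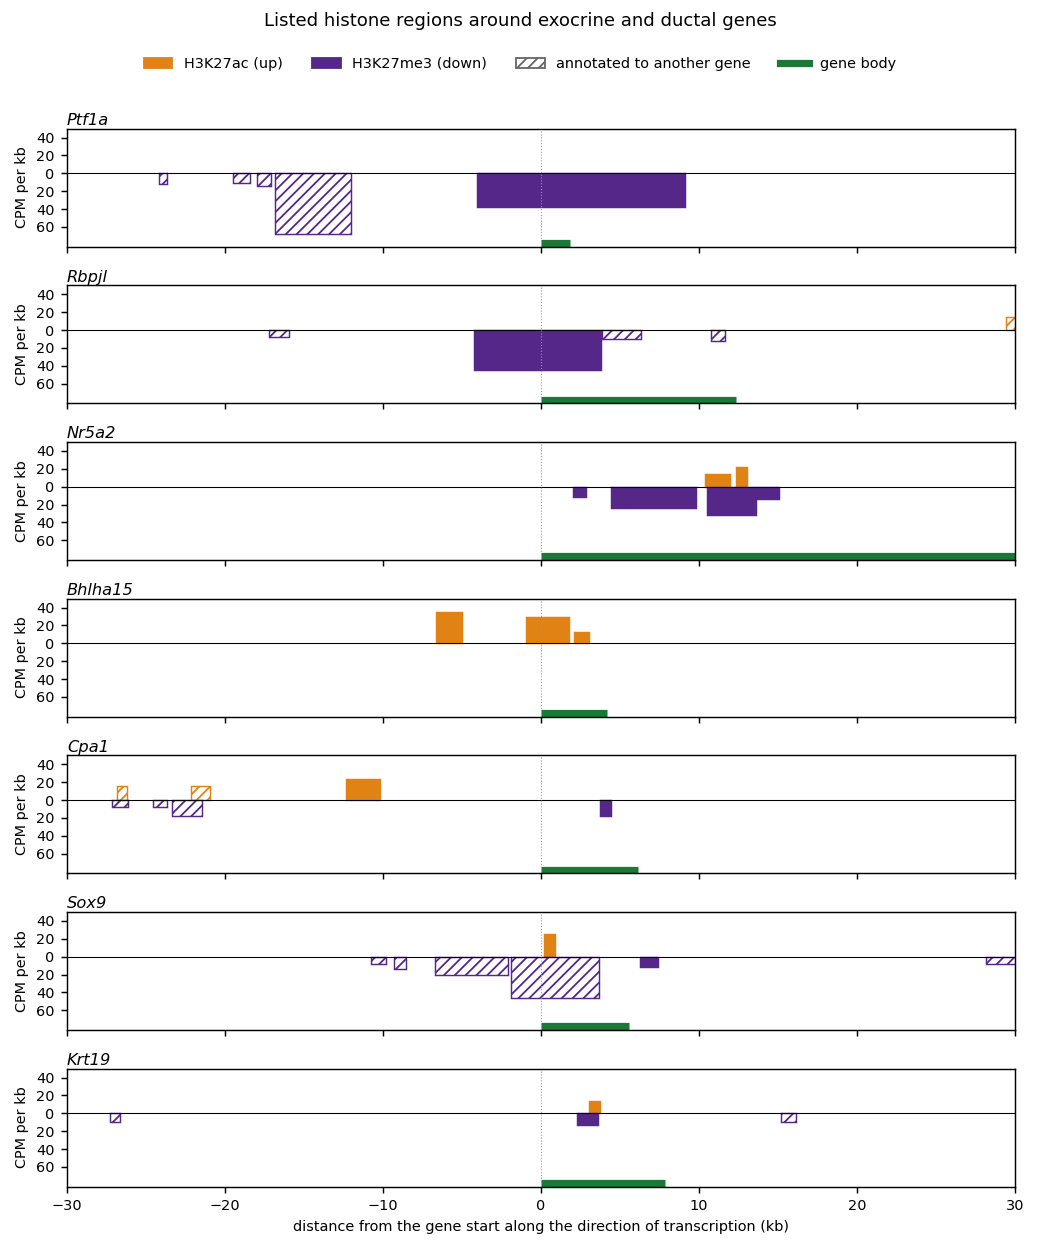
Histone regions within 30 kb of the start of 7 genes (no region of Spp1 was listed), by distance from the gene start along transcription in kb. Bar height is the mean of the Isl1CKO and Control levels in CPM per kb of region, with H3K27ac above the line, H3K27me3 below it and hatching for regions annotated to another gene. Ptf1a, Rbpjl and Sox9 show wide H3K27me3 domains over the start, and Bhlha15 shows H3K27ac with no H3K27me3.

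Ptf1a (ENSMUSG00000026735), which encodes the bHLH subunit that starts the acinar program, lay under an H3K27me3 domain of 13156 bp at chr2:19446447-19459602. The domain reached from -4027 to 9128 bp around the gene start, and so took in the whole gene and both flanks. Its width was at the 99.1 percentile of the 20086 regions of the mark. The counts were 1184 and 1170 in Isl1CKO libraries, against 537 and 886 in Control libraries. Scaled, these were 505.9 and 497.3 CPM in Isl1CKO and 473.2 and 520.4 CPM in Control. The Isl1CKO values lay between the Control values. The means were 502 ± 6.08 CPM in Isl1CKO and 497 ± 33.4 CPM in Control (SD, n = 2 each), a log2 fold change of 0.01 (SE 0.16). Per kb the level was 38.1 CPM in Isl1CKO and 37.8 CPM in Control, the 94.9 and 93.6 percentiles of all regions of the mark. A second domain, annotated to the neighbouring gene Gm13344 and lying -16849 to -12020 bp from the Ptf1a start, averaged 339 ± 64.2 CPM in Isl1CKO and 321 ± 44.1 CPM in Control.

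Rbpjl (ENSMUSG00000017007), the acinar partner of PTF1A, was covered by an H3K27me3 domain of 8041 bp at chr2:164240818-164248858, at the 97.1 percentile by width. The domain runs from -4243 to 3797 bp around the Rbpjl start and also covers the neighbouring start of Matn4, a cartilage matrix gene. Its level was 329.4 and 367.3 CPM in Isl1CKO, against 386.9 and 374.2 CPM in Control. Both Isl1CKO libraries were below both Control libraries, by a small margin. The log2 fold change was -0.13 (SE 0.18), with means of 348 ± 26.7 CPM in Isl1CKO and 381 ± 8.98 CPM in Control (SD, n = 2 each). Per kb it was 43.3 CPM in Isl1CKO and 47.3 CPM in Control, the 96.4 and 96.1 percentiles. Within the Rbpjl gene body a further region annotated to Matn4 had 48.7 and 17.9 CPM in Isl1CKO and 15.0 and 13.5 CPM in Control. Its log2 fold change of 1.22 (SE 0.74) rested mainly on Isl1CKO replicate 1. Another region annotated to Matn4 began 10748 bp inside the Rbpjl start. It had 9.83 and 8.08 CPM in Isl1CKO and 22.9 and 2.94 CPM in Control, a log2 fold change of -0.51 (SE 1.17). An H3K27ac region in intron 1 of Sdc4, a syndecan gene, lay 33100 bp from the Rbpjl start at chr2:164278161-164279400. It had 69.99 and 51.3 CPM in Isl1CKO and 36.3 and 12.1 CPM in Control, so both Isl1CKO libraries were above both Control libraries. Its log2 fold change was 1.33 (SE 0.59; edgeR adjusted p = 0.850), or 2.31 without Control replicate 1 and 0.72 without Control replicate 2. Other H3K27ac regions of Sdc4 differed less. Its promoter region had 82.2 and 94.9 CPM in Isl1CKO and 75.6 and 112.4 CPM in Control, a log2 fold change of -0.09 (SE 0.37). Further intron 1 regions had -0.02 (SE 0.76) and 0.44 (SE 0.87).

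Nr5a2 (ENSMUSG00000026398), a nuclear receptor that acts with PTF1 at acinar genes, is a long gene with 4 regions of each mark. The H3K27me3 regions lay in a row from 2036 to 15064 bp inside the gene start. Distances were measured from a single annotated start. The GRCm38.p6 build has Nr5a2 promoters at chr1:136953581-136953880 and chr1:136960399-136960698, both on the minus strand. Coordinates were not converted, so whether an internal start lies under one of these regions was not tested. The widest, chr1:136878380-136883774, had 131.6 and 124.1 CPM in Isl1CKO and 129.5 and 123.9 CPM in Control, a log2 fold change of 0.01 (SE 0.29). The next, chr1:136874572-136877714, had 116.2 and 121.6 CPM in Isl1CKO, against 86.4 and 78.1 CPM in Control. There both Isl1CKO libraries were above both Control libraries, with means of 119 ± 3.78 CPM in Isl1CKO and 82.2 ± 5.83 CPM in Control (SD, n = 2 each). The log2 fold change was 0.53 (SE 0.33), and the region did not pass the test (edgeR with Benjamini-Hochberg adjustment over all regions, adjusted p = 1.00). The one nearest the start, chr1:136885342-136886150, had few counts, at 2.14 and 12.8 CPM in Isl1CKO and 10.6 and 10.6 CPM in Control, a log2 fold change of -0.50 (SE 1.26). The last, beginning 13678 bp inside the gene, measured 21.5 ± 7.61 CPM in Isl1CKO and 16.3 ± 1.87 CPM in Control, a log2 fold change of 0.40 (SE 0.76).

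The H3K27ac regions of Nr5a2 lay inside the gene, and none was listed over the start from which distances were measured. A pair of them, 10373 and 12333 bp from the start, lay within the H3K27me3 row and overlapped it by 1490 and 690 bp. The one nearer the start, chr1:136876225-136877813, had 28.9 and 7.03 CPM in Isl1CKO and 36.3 and 16.4 CPM in Control, with overlapping groups and a log2 fold change of -0.61 (SE 0.80). A region in intron 6, chr1:136837872-136838409, had 4.56 and 7.03 CPM in Isl1CKO, against 10.0 and 35.6 CPM in Control. Both Isl1CKO libraries were below both Control libraries, and Control replicate 2 was far above Control replicate 1. On the log2 scale the difference was -1.93 (SE 0.97; edgeR adjusted p = 0.865), and leaving out Control replicate 2 gave -0.75. The remaining regions, at 12333 and 68932 bp, had log2 fold changes of -0.08 (SE 0.98) and -0.10 (SE 0.82).

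Bhlha15 (ENSMUSG00000052271), also called Mist1, encodes a bHLH factor that builds the secretory apparatus of acinar cells. Its H3K27ac promoter region, chr5:144126123-144128877, was 2755 bp wide, the 96.4 percentile, against a median width of 999 bp. It had 70.0 and 112.4 CPM in Isl1CKO and 86.5 and 52.6 CPM in Control. The groups overlapped, the means were 91.2 ± 30.02 CPM in Isl1CKO and 69.5 ± 23.9 CPM in Control (SD, n = 2 each), and the log2 fold change was 0.41 (SE 0.41), with a range of 0.0041 to 0.82 when each library was left out in turn. A region -6637 to -5033 bp from the start carries the Bhlha15 symbol but is annotated as a 3' UTR, with Lmtk2 as its flanking gene. It had 65.4 and 59.7 CPM in Isl1CKO and 69.5 and 32.9 CPM in Control, a log2 fold change of 0.30 (SE 0.48). A weaker region beginning 2061 bp inside the gene start averaged 11.5 ± 5.29 CPM in Isl1CKO and 11.8 ± 5.103 CPM in Control, a log2 fold change of -0.07 (SE 1.05). Per kb the promoter region stood at 33.1 CPM in Isl1CKO and 25.2 CPM in Control, the 78.7 and 57.5 percentiles of H3K27ac regions.

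Cpa1 (ENSMUSG00000054446), which encodes a carboxypeptidase that acinar cells secrete as a zymogen, had the difference with the smallest p among the 19 histone regions. Its H3K27ac region, chr6:30626901-30629022, is not at the gene start but -12316 to -10195 bp from it, where the annotation places exon 9 of 12 of Cpa5, a neighbouring carboxypeptidase gene. It held 12 and 30 counts in Isl1CKO libraries, against 124 and 112 in Control libraries. Scaled, these were 18.3 and 21.1 CPM in Isl1CKO and 95.7 and 61.4 CPM in Control. The groups were well apart, at 19.7 ± 2.00 CPM in Isl1CKO and 78.6 ± 24.3 CPM in Control (SD, n = 2 each). The log2 fold change was -1.98 (SE 0.52), with an unadjusted edgeR p of 0.00147 and an adjusted p of 0.838 over 30036 regions. It did not pass the test. With all libraries DESeq2, an alternative test, gave a log2 fold change of -1.99 and an adjusted p of 0.0689, which did not pass either. Without Control replicate 2 the edgeR log2 fold change was -2.27. The lone Control library is then assumed to vary like the Isl1CKO libraries, and 15 of the 30036 regions were called.

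A pair of H3K27ac regions annotated to Cpa5 lay next in line upstream. They were looked at after the Cpa1 values were seen. The nearer, chr6:30617035-30618238 in intron 4 of Cpa5, held 5 and 3 counts in Isl1CKO and 36 and 74 in Control, a log2 fold change of -2.94 (SE 0.88). Its edgeR adjusted p was 0.846 with all libraries and 0.0471 without Control replicate 1, when the spread rests on the Isl1CKO libraries alone and 900 of the 30036 regions were called. The farther, chr6:30612392-30613017, held 1 and 3 counts in Isl1CKO and 27 and 26 in Control, which gave a log2 fold change of -3.16 (SE 1.29; edgeR adjusted p = 0.850). In all 3 regions both Isl1CKO libraries were below both Control libraries. The nearer and the farther Cpa5 region overlapped H3K27me3 regions, by 708 and 626 bp. Those H3K27me3 regions had log2 fold changes of 0.02 (SE 0.67) and -0.57 (SE 1.33) in the same order. In the Cpa1 gene itself the H3K27me3 region chr6:30642962-30643632 had 15.4 and 9.35 CPM in Isl1CKO and 15.0 and 9.40 CPM in Control, a log2 fold change of 0.03 (SE 0.97).

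**Figure D2:**
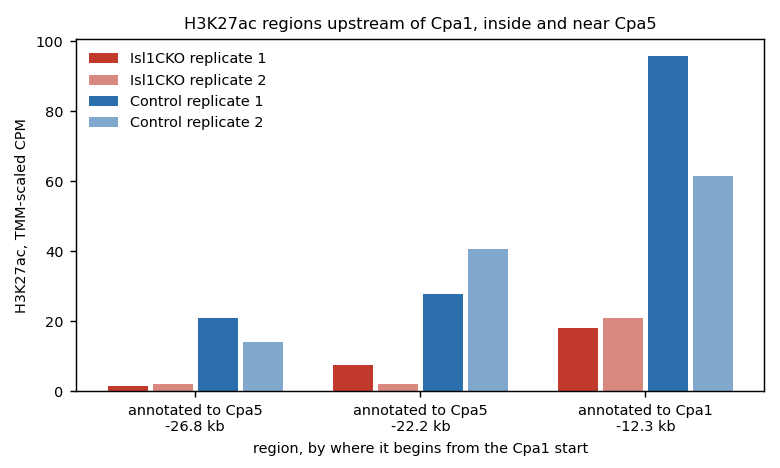
H3K27ac in TMM-scaled CPM at the region annotated to Cpa1 and the 2 annotated to Cpa5, placed by where each begins from the Cpa1 start, with 1 bar per library. In each region both Isl1CKO bars are below both Control bars, with 18.3 and 21.1 CPM in Isl1CKO and 95.7 and 61.4 CPM in Control at the Cpa1 region.

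Sox9 (ENSMUSG00000000567), the HMG-box factor of progenitors and ducts, had both marks at its start. The H3K27ac promoter region, chr11:112673259-112673901, was 643 bp wide and held 4 and 12 counts in Isl1CKO and 16 and 70 in Control. Scaled, these were 6.09 and 8.43 CPM in Isl1CKO, against 12.4 and 38.4 CPM in Control. Both Isl1CKO libraries were below both Control libraries, but most of the difference came from Control replicate 2. On the log2 scale the difference was -1.77 (SE 0.88; edgeR adjusted p = 0.865), and leaving out Control replicate 2 gave -0.74. The means were 7.26 ± 1.66 CPM in Isl1CKO and 25.4 ± 18.4 CPM in Control (SD, n = 2 each).

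The whole Sox9 promoter region of H3K27ac lay inside an H3K27me3 domain, chr11:112671134-112676702, that the file assigns to the adjacent transcript BC006965. This domain runs from -1916 to 3652 bp around the Sox9 start and held 249.5 and 249.1 CPM in Isl1CKO and 326.1 and 206.8 CPM in Control. The Isl1CKO values lay between the Control values, and the log2 fold change was -0.09 (SE 0.24). It moved to 0.27 without Control replicate 1 and to -0.39 without Control replicate 2. Per kb the domain had 44.8 CPM in Isl1CKO and 47.8 CPM in Control. Next to it, another domain assigned to BC006965 lay -6731 to -2114 bp from the Sox9 start. This other domain had 103.0 and 126.2 CPM in Isl1CKO and 84.6 and 74.0 CPM in Control. There both Isl1CKO libraries were above both Control libraries, with a log2 fold change of 0.53 (SE 0.34), and it was not called. The single H3K27me3 region that carries the Sox9 symbol lay beyond the gene end, at chr11:112679296-112680442, with 12.8 and 24.7 CPM in Isl1CKO and 3.52 and 9.99 CPM in Control. Both Isl1CKO libraries were above both Control libraries at these low levels, with a log2 fold change of 1.44 (SE 1.00; edgeR adjusted p = 1.00).

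Krt19 (ENSMUSG00000020911), a keratin of duct cells, had 1 region of each mark, and 589 bp were shared between them. Its H3K27ac region, chr11:100035776-100036466, begins 3025 bp inside the gene start, in exon 1 of an annotated transcript, and held 2 and 4 counts in Isl1CKO and 19 and 31 in Control. These were 3.04 and 2.81 CPM in Isl1CKO and 14.7 and 17.0 CPM in Control, with the groups apart. The level of 3 counts was 4.56 and 2.11 CPM in the Isl1CKO libraries, so the Isl1CKO values are near the lowest that could be counted. The log2 fold change was -2.41 (SE 1.24; edgeR adjusted p = 0.865). The H3K27me3 region, chr11:100035878-100037243, had 19.2 and 8.93 CPM in Isl1CKO and 30.8 and 14.1 CPM in Control, a log2 fold change of -0.66 (SE 0.82) that ranged from -1.32 to -0.0021 with each library left out in turn.

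Spp1 (ENSMUSG00000029304), which encodes the secreted phosphoprotein osteopontin of duct cells, had no listed region of either mark. The nearest H3K27ac region began 24669 bp from its start and belongs to the promoter of Pkd2. That region had 45.6 and 37.2 CPM in Isl1CKO and 24.7 and 4.93 CPM in Control.

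**Figure D3:**
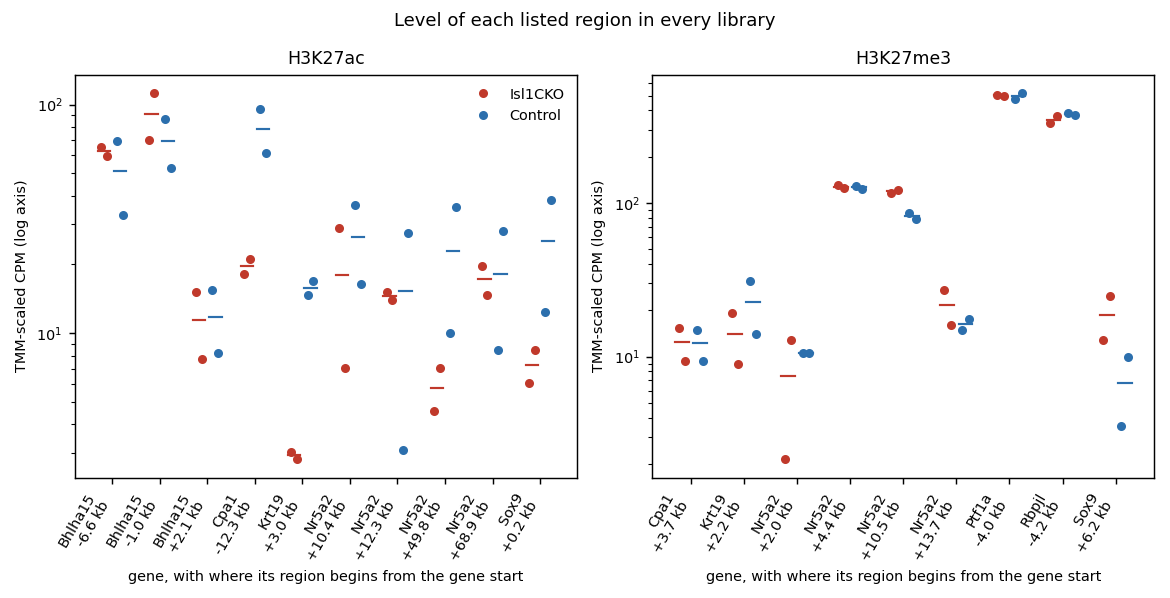
TMM-scaled CPM on a log axis for the 10 H3K27ac and 9 H3K27me3 regions of the 8 genes, named by gene and by where the region begins from the gene start. Points are libraries, with Isl1CKO left of Control, and lines are group means (n = 2). At Ptf1a the Isl1CKO points (497.3 and 505.9 CPM) lie between the Control points (473.2 and 520.4 CPM), and at Cpa1 the H3K27ac points of Isl1CKO lie below those of Control.

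Over the 10 H3K27ac regions, 2 had a positive and 8 a negative log2 fold change, with a median of -0.36 against -0.03 over all tested regions. By representative region, 4 of the 5 genes were lower, against 48.8% of all genes. The split was 3 lower and 2 higher without Isl1CKO replicate 2 and without Control replicate 1. It was the same when libraries were scaled by the sizes that the authors' fold changes imply. None of the 10 passed the threshold of 0.05 on the adjusted p, and neither did any of the 30036 tested (0%), although 1751 had an unadjusted edgeR p below 0.05 and DESeq2 called 29 (0.0966%). In 4 of the 10 regions (40.0%), those of Cpa1, Krt19, Sox9 and Nr5a2 intron 6, both Isl1CKO libraries were below both Control libraries, against 19.4% of all regions. In 0 of the 10 both were above, against 18.1%. Of the 10, only the Cpa1 region had an unadjusted edgeR p below 0.05, against 5.83% of all regions. The 10 regions belong to 5 genes and are not independent.

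For H3K27me3, 6 of 9 regions had a positive and 3 a negative log2 fold change, with a median of 0.01 against 0.05 over all tested regions. By representative region, 3 of the 6 genes were lower, against 55.4% of all genes. None was called, as was true of all 19434 regions (0%), of which DESeq2 called 123 (0.633%). None of the 9 had an unadjusted edgeR p below 0.05, against 843 of all regions (4.34%). Both Isl1CKO libraries were above both Control libraries in 2 of 9, against 18.7% of all regions, and below in 1 of 9, against 16.7%. These shares are near the background. Scaling decides the sign of small differences: when libraries were scaled by the sizes that the authors' fold changes imply, the median of all regions was 0.54 for H3K27ac and -0.49 for H3K27me3, and with library totals that of H3K27me3 was 0.16.

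**Figure D4:**
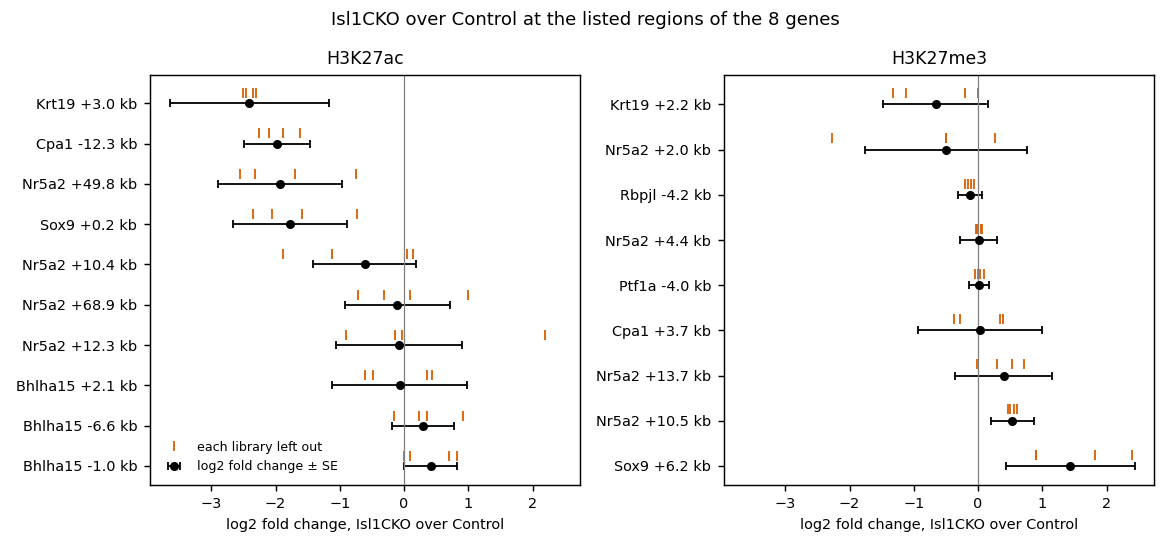
Log2 fold change of Isl1CKO over Control for each region of the 8 genes, shown ± SE (n = 2 libraries each). The SE was derived as the absolute log2 fold change over the square root of the edgeR F statistic. Orange ticks are the values with each library left out in turn. The H3K27ac values of Krt19, Cpa1, Sox9 and the Nr5a2 region at 49777 bp stay below 0 with any 1 library left out, and the H3K27me3 values of Ptf1a and Rbpjl lie close to 0.

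The authors' deposited table, made with another scaling and test, called 6 of the 10 H3K27ac regions at an adjusted p below 0.05, against 37% of all regions. In the authors' deposited table the 4 called lower were Krt19 (log2 fold change -2.04), Cpa1 (-1.55), the Nr5a2 intron 6 region (-1.47) and Sox9 (-1.31), against 9.25% of all regions called lower. The 2 called higher in the authors' deposited table were annotated to Bhlha15, against 27.8% of all regions called higher. They were the promoter at 0.90 and, at 0.84, the upstream region at a 3' UTR flanked by Lmtk2. For H3K27me3 the authors' deposited table called 1 of 9, against 38.8% of all regions. This was the Krt19 region, lower at -1.19, where the authors' deposited table called 29.6% of all regions lower and 9.17% higher.

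The marks overlapped at 3 of the genes, which is given as a description. Of the 10 H3K27ac regions, 4 overlapped an H3K27me3 region by at least 1 bp, those of Sox9, Krt19 and the Nr5a2 pair, against 6.86% of all H3K27ac regions. Of the 9 H3K27me3 regions, 2 overlapped an H3K27ac region, against 9.67%.

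ISL1 values are whole numbers per window of about 6000 bp around a gene start, in a unit the file does not name, and they come from single columns with no replicate. At E14.5 the Ptf1a and Bhlha15 windows had a value of 2 and the Sox9 window 1, and those of Nr5a2, Krt19, Spp1 and Cpa1 had 0. At P9 all 7 windows had 0. Values of at least 1 thus occurred in 3 of 7 windows at E14.5, against 37.7% of all windows, and in 0 of 7 at P9, against 8.86%. The Rbpjl start lies in a window that the file assigns to Matn4, which had 4 at E14.5 and 0 at P9. The highest value of any window was 133 at E14.5 and 8 at P9. None reached 5 or 10 at E14.5, as 2.06% and 0.0851% of all windows did.

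The wider gene groups set these genes in context. Of 34 acinar secretory genes, 8 had an H3K27ac region, and pancreatic lipase, amylase and trypsin genes were among the 26 without one. Their summed H3K27ac level was 373 and 303 CPM in Isl1CKO and 407 and 389 CPM in Control. A large part was the Ctrb1 region, which is annotated to an exon and not to a promoter. It had 150.6 and 100.5 CPM in Isl1CKO and 121.2 and 118.4 CPM in Control. The sum also holds the Cpa1 region inside Cpa5, so it is not a level of enzyme gene promoters alone. The representative regions were higher for 5 and lower for 3, with a median of 0.05 against 0.02 over all genes, and none was called. Ctrl, a chymotrypsin-like protease gene, had 15.2 and 26.7 CPM in Isl1CKO and 0 and 4.93 CPM in Control. Its log2 fold change of 2.97 (SE 1.28; adjusted p = 0.850 by edgeR) had the opposite sign to that of Cpa1. In Control replicate 1 its count of 0 allows up to 2.32 CPM. H3K27me3 regions were listed for 3 genes of the list, among them Cpa1 and Erp27, a chaperone-like protein gene, with 0.29 (SE 1.39), and none was called.

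Of 14 acinar regulators, 8 had an H3K27ac region, with 6 higher and 2 lower, a median of 0.25, and none called, against 48.8% of all genes lower. This split depended on the libraries and the scaling. It was 4 higher and 4 lower without Control replicate 2 (median 0.026) and without Isl1CKO replicate 2 (median -0.015), and 8 higher and 0 lower with the sizes implied by the authors' fold changes (median 0.78). The pair with the smallest p were Tcf12, an E protein, with 0.53 (SE 0.42), and Xbp1, a factor of the secretory pathway, with 127.8 and 151.8 CPM in Isl1CKO and 115.0 and 98.1 CPM in Control (0.40, SE 0.32). For H3K27me3, 6 of the 14 had a region, with 4 higher, 2 lower and none called. They included Rbpj, the Notch effector that RBPJL replaces, with 0.44 (SE 0.43), and Cckar, the cholecystokinin receptor gene, with 1.01 (SE 1.02).

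Of 35 ductal genes, 25 were tested for H3K27ac, with 11 higher, 14 lower, a median of -0.05 and none called. Their summed H3K27ac level was 2711 and 2587 CPM in Isl1CKO and 2712 and 2392 CPM in Control. Ehf, an ETS factor of epithelia, had 3.04 and 3.51 CPM in Isl1CKO and 13.1 and 33.4 CPM in Control. Its log2 fold change was -2.78 (SE 1.04). For H3K27me3, 13 ductal genes were tested, with 7 higher, 6 lower and none called, against 55.4% of all genes lower. Without Control replicate 2 it was 3 higher and 10 lower (median -0.42), and with the sizes implied by the authors' fold changes 1 higher and 12 lower. Cd24a, a surface protein gene, had 26.1 and 21.3 CPM in Isl1CKO and 25.6 and 157.4 CPM in Control, so its log2 fold change of -1.96 (SE 0.69) rested on Control replicate 2. Onecut2, a ductal and progenitor factor, had -0.44 (SE 0.17).

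Of 21 progenitor genes, 16 were tested for H3K27ac, with 7 higher, 9 lower, a median of -0.09 and none called. Fgfr2, a receptor that mesenchymal FGF signals act on, had 174.97 and 142 CPM in Isl1CKO and 95.7 and 44.9 CPM in Control. Its log2 fold change was 1.18 (SE 0.39). Mnx1, a homeodomain factor, had 7.61 and 9.84 CPM in Isl1CKO and 12.4 and 76.2 CPM in Control, a log2 fold change of -2.32 (SE 0.83) that also drew on Control replicate 2. For H3K27me3, 12 were tested, with 6 higher, 6 lower and none called. Etv4, an ETS factor downstream of FGF signals, had 70.5 and 69.7 CPM in Isl1CKO and 125.1 and 147.4 CPM in Control (-0.96, SE 0.33), and Mnx1 had -0.42 (SE 0.19).

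Genes that mark other cells which a sort could carry were also measured. H3K27ac regions were listed for 3 of 9 endothelial, 3 of 10 mesenchymal, 2 of 9 immune and 3 of 7 glial genes. Their summed H3K27ac levels were 16.7 to 105 CPM in Isl1CKO and 34.0 to 138 CPM in Control over these lists. The endothelial sum was 38.0 and 49.2 CPM in Isl1CKO and 34.0 and 121 CPM in Control, highest in Control replicate 2. Both tested endothelial genes had a negative log2 fold change, with a median of -1.10, or 0.047 without Control replicate 2. That library also held most of the differences at Sox9 and Nr5a2 intron 6. Their part in the values above was not tested.

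ISL1 values by gene list are given as a description. At E14.5, 3 of 30 windows of acinar secretory genes had a value of at least 1 (10.0%). The share was 9 of 13 for acinar regulators (69.2%), 25 of 35 for ductal genes (71.4%), 16 of 21 for progenitor genes (76.2%) and 21 of 31 for endocrine genes (67.7%), against 37.7% of all windows. At P9 the counts were 0 of 30, 2 of 13, 8 of 35, 5 of 21 and 4 of 31 in the same order, against 8.86% of all windows.

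The genes most like each member were sought over the 8 histone libraries by Euclidean distance in log2(CPM + 1), summed per gene, among 2983 genes with both marks. Nr5a2 was nearest to Unc5b (0.966) and Fam53a (0.986), at a median distance to all genes of 7.30. Cpa1 was nearest to Wif1 (1.24) and Ncf1 (1.57), Krt19 to 4930512J16Rik (1.51) and Gm12269 (1.54), and Sox9 to Ppargc1a (1.56) and Gm28163 (1.79). Wif1 had H3K27ac of 21.3 and 27.4 CPM in Isl1CKO and 59.4 and 71.3 CPM in Control, summed over its regions.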

How the data were processed

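Per the submitters' processing notes, Bowtie2 2.3.5.1, Picard 2.27.4, MACS2 2.2.6, ChIPseeker 1.38.0, edgeR 4.0.16 and the GRCm39 build were used. For each histone library the deposited tables give raw counts per region, beside the coordinates, the annotation and the authors' own log2 fold changes and p-values. Their ISL1 file has other deposited values, a whole-number score per promoter window in no stated unit. The number of per-sample columns left unused was 0.

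Repeated regions (108 for H3K27ac, 90 for H3K27me3) were dropped. Chromosome labels of the histone files followed alphabetical order: 7.47% and 9.23% matched the ISL1 file as deposited, and 100% did once relabelled.

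Counts were tested with edgeR 4.0.16 in R 4.3.3 (filterByExpr, TMM, quasi-likelihood, 2 against 2 libraries). Each SE was derived as the absolute log2 fold change over the square root of the F statistic, since the fit returns none. Benjamini-Hochberg adjustment ran over every tested region of the mark, and calls were made at an adjusted p below 0.05. A gene's representative region was its promoter region with the most counts, or else its highest region. Levels are CPM over the counts in tested regions, times the TMM factor. The level of 3 counts was 1.64 to 4.56 CPM for H3K27ac and 1.28 to 2.64 CPM for H3K27me3, for counting error only. The fit was checked on simulated counts whose spread between libraries was far smaller than in these data. That check therefore cannot say how many changes would be called at the real spread.

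All 8 genes are named. Regions are given in full where they represent the gene, had an unadjusted p below 0.05, or had groups that do not overlap. From each list the 2 genes of smallest p per mark are named, as are the 2 genes nearest in pattern. Some genes that these rules select are not reported here. Regions of neighbouring genes were chosen after their values were seen. The members and lists were chosen with earlier results of these data known. Alternatives were other scalings, no filter, DESeq2 1.42.0, a replicate block, leaving out each library, summed regions, other ISL1 thresholds and, added after seeing the data, the region over the gene start.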

Additional observations from a re-analysis of the deposited data

How the results depend on the processing

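Several H3K27ac regions rest on few counts, such as 2 and 4 at Krt19 in Isl1CKO, and on Control replicate 2, and each group had 2 libraries. No region of the 8 genes was called in the main run, so there was no call to lose. None was called under any alternative run. For the Krt19 H3K27ac region DESeq2 gave a log2 fold change of -2.46 but no adjusted p, so a call was not assessed there. Of 221 recomputed log2 fold changes, 188 kept their direction and 33 reversed. The cause of the reversals was not tested.

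Over all H3K27ac regions, 0 to 900 were called with a library left out (900 without Control replicate 1, 15 without Control replicate 2), and DESeq2 called 29. Over all H3K27me3 regions DESeq2 called 123.

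Values that reversed when scaled by the sizes that the authors' fold changes imply were, for H3K27ac, 0.54 at Nr5a2 exon 7, 0.56 at Nr5a2 intron 3, 0.041 at the Nr5a2 region 10373 bp from the start and 0.53 at the Bhlha15 region 2061 bp from the start. For H3K27me3 they were -0.13, -0.0089 and -0.53 at the Nr5a2 regions 13678, 10472 and 4412 bp from the start, -0.52 at Ptf1a and -0.53 at Cpa1. The loess offset gave 0.031 at Nr5a2 intron 3 and 0.039 at the Bhlha15 region 2061 bp from the start for H3K27ac, and 0.048 at Rbpjl and -0.018 at Cpa1 for H3K27me3. Summing the Nr5a2 regions gave 0.28 for H3K27me3, and the domain over the Sox9 start gave -0.093.

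Replicate numbers did not pair the libraries (correlation of same-number deviations 0.05 for H3K27ac and -0.01 for H3K27me3, 2 pairs). With the replicate number as a block, 0 regions of either mark were called, and the H3K27ac values were -1.93 at Cpa1, -2.41 at Krt19, -1.67 at Sox9, 0.072 at Nr5a2 exon 7 and 0.44 at Nr5a2 intron 3.

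With each library left out in turn, the H3K27ac log2 fold changes that reversed ranged from -0.71 to 0.99 at Nr5a2 exon 7, -0.91 to 2.195 at Nr5a2 intron 3, -1.89 to 0.13 at the Nr5a2 region 10373 bp from the start, -0.16 to 0.92 at the upstream Bhlha15 region and -0.60 to 0.44 at the Bhlha15 region 2061 bp from the start. The H3K27me3 ones ranged from -0.023 to 0.72 and -0.037 to 0.056 at the Nr5a2 regions 13678 and 4412 bp from the start, -2.27 to 0.26 at the one 2036 bp from the start, -0.053 to 0.084 at Ptf1a and -0.38 to 0.39 at Cpa1. Without 1 library the H3K27ac range was -2.27 to -1.62 at Cpa1, -2.51 to -2.30 at Krt19 and -2.35 to -0.74 at Sox9.

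By library totals the Control H3K27me3 level was 12.5 CPM per kb at the Nr5a2 region nearest the start and 45.3 CPM per kb at Rbpjl. Among promoter regions alone the Control percentile was 41.0 at that Nr5a2 region, 84.0 at Ptf1a and 89.6 at Rbpjl. No ISL1 window of these genes reached a value of at least 5 or 10 at E14.5 (0 windows in both cases).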

Other observations

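Genes of mesenchyme, a tissue that surrounds the pancreatic epithelium, lay under H3K27me3 in both genotypes. Of 10 mesenchymal genes, 6 had an H3K27me3 region. All 6 had a negative log2 fold change with all libraries, against 55.4% of all genes. Their median was -0.43 against -0.08 over all genes, and it was -0.20 with the loess offset. Of the 6, 5 were negative without Control replicate 1, without Control replicate 2 or without Isl1CKO replicate 2. None was called. Barx1, a homeobox gene of foregut mesenchyme, had 1095 and 1200 CPM in Isl1CKO and 1571 and 1542 CPM in Control, a log2 fold change of -0.44 (SE 0.11). Twist1, a bHLH factor of mesenchyme, had 247.8 and 221.9 CPM in Isl1CKO and 388.6 and 342.4 CPM in Control, a log2 fold change of -0.64 (SE 0.20). Pdgfra, a growth factor receptor gene, had 532.4 and 604.0 CPM in Isl1CKO and 753.5 and 768.3 CPM in Control, a log2 fold change of -0.42 (SE 0.14). Ptf1a and Rbpjl, which also lay under wide domains, had values of 0.01 (SE 0.16) and -0.13 (SE 0.18). Among wide domains of the other lists, Onecut2 had -0.44 (SE 0.17), Mnx1 -0.42 (SE 0.19) and Foxa1 -0.14 (SE 0.13). Gata4 had 0.04 (SE 0.19) and Sctr 0.15 (SE 0.20), so wide domains outside the mesenchymal list went both ways. These genes were named after their values were seen.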
